A study of Mus musculus with 4 samples.

Results

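Lysosomal hydrolases that cleave sugars and lipids were followed in mouse liver through 7 genes. These were the glycosidase genes Gla, Gaa, Glb1 and Hexa, and the lipid genes Lipa, Smpd1 and Psap. Every probe set with 1 of these symbols in the platform annotation was taken, whatever its value, which gave 7 of 12393 named genes and 12 of the 22626 probe sets tested, 6 for the glycosidases and 6 for the lipid genes. The starved group held 2 wild-type mice starved for 24 h, 1 month of age, with C57/BL6 as genetic background. The control group held 2 wild-type mice of the same background and age, called control. No transgene, knockout or drug is named for either group. A description field speaks of injected mice for the starved arrays and of mice without injection for the control arrays. Titles, sources and treatment fields name starvation alone, so the grouping follows those, and what was injected was not settled. If the starved mice were injected, injection and starvation cannot be told apart in any comparison below. Total RNA of each liver was read on 1 Affymetrix array, and the labels call the mice of a group biological replicates.

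Lysosomes are acid compartments in which hydrolases take apart material delivered by endocytosis and autophagy. Glycosidases remove sugars from glycogen, glycoproteins and glycolipids. Acid lipase and the sphingolipid enzymes release cholesterol, fatty acids and ceramide. In fasting liver, lysosomes break down glycogen and lipid droplets alongside the cytosolic enzymes, and transcription factors of the MiT/TFE family, such as TFEB, can switch on many lysosomal genes through E-box elements in their promoters.

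Stretches of the Gla, Glb1 and Gaa promoters are shown because they carry the E-box core, which was not found in the windows of the other 4 members. RefSeq windows of 300 bases (GRCm38.p6, 250 bases before to 50 after an annotated transcript start) were found for all 7 genes, with 2 windows for Psap. The core searched was CACGTG, which reads the same on both strands, and its extension TCACGTGA, which contains the core and also reads the same on both strands. The stretches below run 5′ to 3′ on the strand of the gene, with the core in capitals. They lie at chrX:134601180-134601246 on the minus strand for Gla, at chr9:114401008-114401057 on the plus strand for Glb1 and at chr11:119267801-119267850 on the plus strand for Gaa.
Gla: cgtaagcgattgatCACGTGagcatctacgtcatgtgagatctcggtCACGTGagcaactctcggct
Glb1: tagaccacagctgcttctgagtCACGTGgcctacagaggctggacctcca
Gaa: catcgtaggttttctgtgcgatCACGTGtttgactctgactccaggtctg

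Gla held 2 cores, which began 227 and 194 bases before the start, and both sat inside the extension. The core began 140 bases before the start in Gaa and 48 bases before it in Glb1, in both without the full extension. The core was not found in the windows of Hexa, Lipa, Smpd1 or Psap. Across all 32851 windows of this length 7.15% held the core and 0.974% the extension. Other forms of the motif were searched too. The core with a T before it, read on either strand, was found in Gla, Gaa and Glb1, and in 3.77% of all windows. The extension with a further G before it and a C after it was found in no member window, and in 0.326% of all windows. Among 9883 genes on the array with a window, 10.8% held the core in at least 1 window. Of the other lysosomal glycosidases with a window 1 of 9 held it (Naglu), and of the other lysosomal lipid genes 1 of 7 (Arsa). A match of letters is a description of the sequence, and binding of a factor was not measured.

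**Figure D1:**
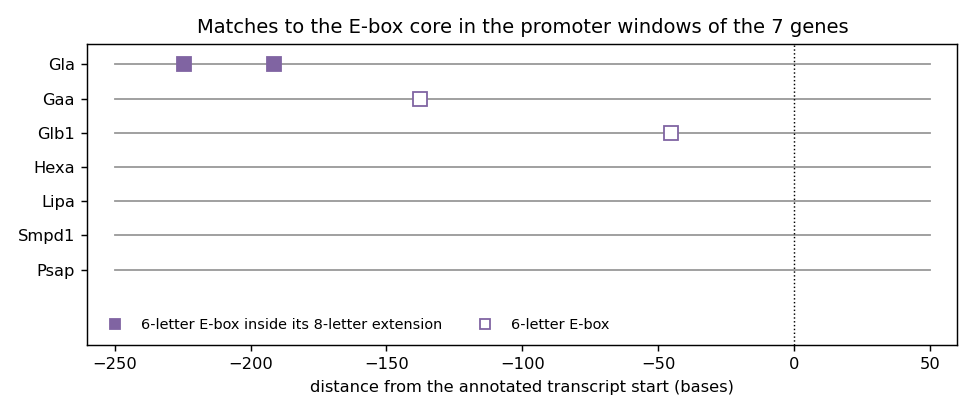
Positions of the E-box core in the promoter windows of the 7 genes, with distance from the annotated transcript start in bases on the x axis and a gene in each row. Filled squares mark cores inside the longer extension (2 in Gla), open squares mark cores without it (Gaa and Glb1), and the rows of Hexa, Lipa, Smpd1 and Psap (both windows) hold none.

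The values are the authors' log2 RMA signals, in which 1 unit is a doubling, and each change is given as starved minus control. The arrays had medians of 6.72 and 6.72 in starved livers, against 6.73 and 6.70 in control livers. Over probe sets, which are not independent of each other, Pearson's r was 0.994 between the starved arrays, 0.992 between the control arrays and 0.986 to 0.991 between groups. Control array 2 stood apart in acute phase genes chosen after their values were seen. Lcn2, for example, read 8.84 and 9.15 in starved livers, against 9.35 and 13.49 in control livers. RNA integrity was read from actin, whose 3′ control probe set exceeded its 5′ one by 2.06 and 1.85 in starved livers, against 1.79 and 1.76 in control livers. The same gap for Gapdh was 0.86 and 0.48 in starved livers, against 0.65 and 0.54 in control livers, so there the groups overlapped.

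The tissue label was set against marker lists. Of 10 hepatocyte markers 8 were measured and 0 of them lay below the lower quartile on every array, with summed linear signals of 192364 to 203733 in starved livers and 192057 to 199239 in control livers. Macrophages are rich in lysosomal hydrolases, and the sum over 11 of 12 Kupffer cell and macrophage markers was 9146 and 9552 in starved livers, against 8840 and 11029 in control livers. The starvation label was set against genes known to respond to fasting. Ehhadh of peroxisomal fatty acid oxidation read 13.50 and 13.42 in starved livers, against 11.18 and 10.87 in control livers, and rose by 2.44 ± 0.14 (log2 change, SE; limma, adjusted p = 0.0379). Of 11 probe sets for 8 such genes 2 rose past the test (Ehhadh and Cyp4a14), and 10 were higher on both starved arrays than on both control arrays. Of all probe sets 0.0575% passed the test in either direction and 21.3% were higher on both starved arrays.

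Starvation against control gave no member probe set past the test. In limma's fit over all 22626 probe sets with Benjamini-Hochberg adjustment, 0 of 12 members had an adjusted p under 0.05, where 0.0575% of all probe sets (13) did. At an unadjusted p under 0.05 there were 3 of 12, against 11.5% of all probe sets. Gla and Glb1 were the 2 lower ones (6.04% of all probe sets) and 1 Gaa probe set was the higher one (5.42%). Groups did not overlap in 7 of 12 members, against 41.9% of all probe sets. Of these 5 were lower on both starved arrays (20.6% of all) and 2 were higher on both (21.3%). The median log2 change was -0.14 over the members, within a range of -0.66 to 0.35, and 0.0028 over all probe sets. An exact permutation test of 2 against 2 arrays cannot go below p = 0.333 (two-sided), so no single value can pass that way.

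**Figure D2:**
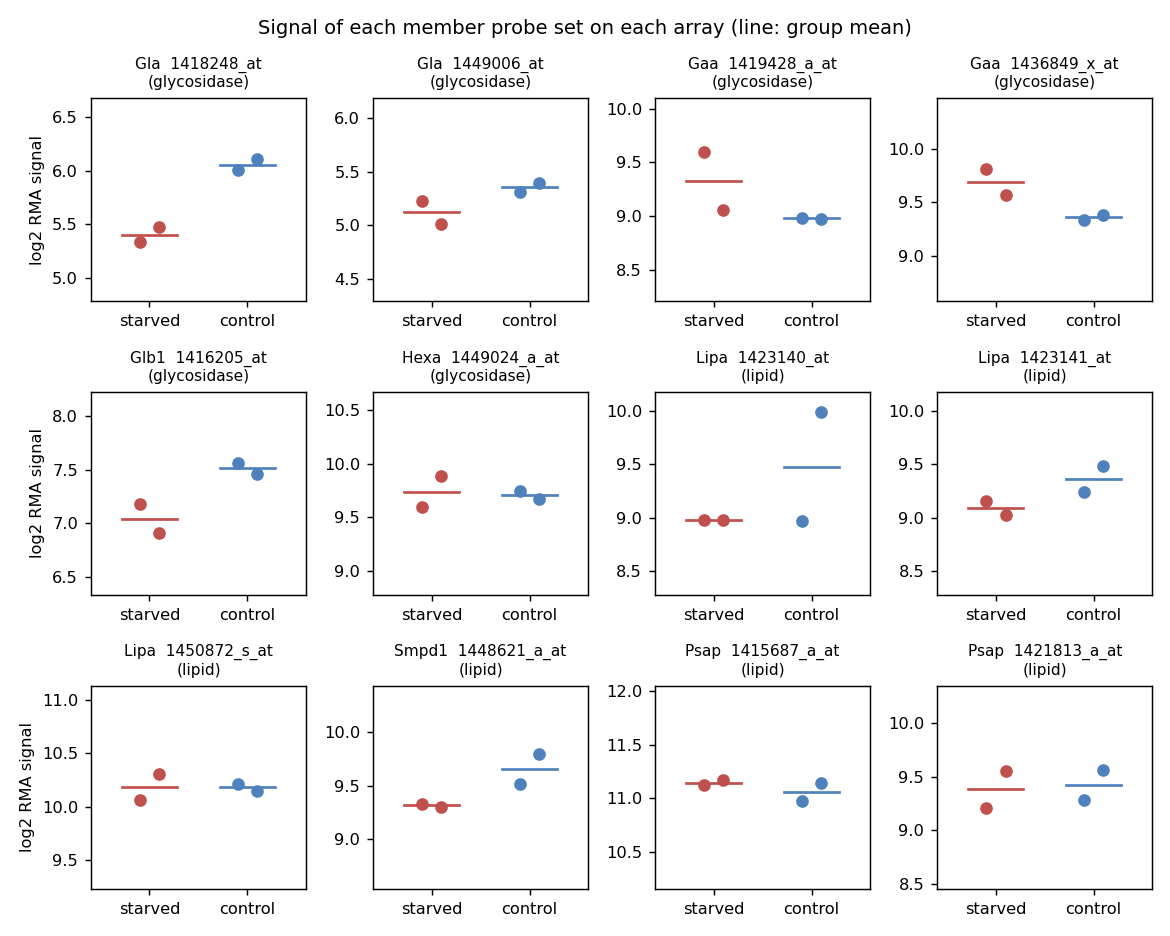
Signal of the 12 member probe sets on the 4 arrays, on a log2 scale of equal height in every panel; points are arrays, with replicate 1 left of replicate 2, and lines are group means. Starved points lie below both control points in Gla (both probe sets), Glb1, Smpd1 and 1 of the 3 Lipa probe sets, and above them in both Gaa probe sets.

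Among the glycosidases, Gla encodes alpha-galactosidase A, which removes terminal galactose from globotriaosylceramide and is deficient in Fabry disease. Its probe set 1418248_at read 5.34 and 5.47 in starved livers, against 6.01 and 6.11 in control livers. Both starved arrays were low and the groups did not overlap. The means were 5.40 ± 0.10 in starved and 6.06 ± 0.07 in control livers (SD, n = 2 each). The change was -0.66 ± 0.12 (SE), a 1.57-fold lower signal, with a 95% interval of -0.95 to -0.36. It was the smallest p of the members, and limma's adjusted p was 0.148.

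The other Gla probe set, 1449006_at, read 5.23 and 5.02 in starved livers, against 5.31 and 5.40 in control livers. These groups did not overlap either, but the change was smaller, at -0.23 ± 0.13 (SE, limma adjusted p = 0.563). Both probe sets were dim. Their percentile rank within an array was 28.8 to 40.9 for 1418248_at and 23.3 to 29.7 for 1449006_at, and RMA compresses differences at such signals. In bulk liver, fewer cells of a type and less RNA per cell cannot be told apart, here and for every gene below. With the mean of both probe sets the change of Gla was -0.44 (adjusted p = 0.223, limma).

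Glb1 encodes the acid beta-galactosidase that acts on gangliosides and keratan sulfate. It read 7.18 and 6.91 in starved livers, against 7.57 and 7.46 in control livers. Both starved arrays lay below both control arrays. The change was -0.47 ± 0.14 (SE), a 1.38-fold lower signal, with a 95% interval of -0.81 to -0.12 and an adjusted p of 0.310 in limma.

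Gaa encodes acid alpha-glucosidase, which degrades glycogen inside lysosomes and is deficient in Pompe disease. Its probe set 1436849_x_at read 9.81 and 9.57 in starved livers, against 9.34 and 9.38 in control livers. Probe set 1419428_a_at read 9.60 and 9.06 in starved livers, against 8.98 and 8.97 in control livers. In both, starved array 1 was the highest and the groups did not overlap. The changes were 0.33 ± 0.13 and 0.35 ± 0.19 (SE), or 1.26-fold and 1.28-fold higher, with limma adjusted p of 0.425 and 0.558. Without starved replicate 1, whose actin and Gapdh gaps were the widest, they were 0.21 and 0.083; the part of RNA integrity in these values was not tested. The _x_at type may also bind related transcripts.

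Hexa encodes the alpha subunit of beta-hexosaminidase A, the enzyme lost in Tay-Sachs disease. It read 9.59 and 9.88 in starved livers, against 9.75 and 9.67 in control livers. The starved arrays lay on either side of the control arrays. The change was 0.030 ± 0.14 (SE), with a 95% interval of -0.32 to 0.38 (limma, adjusted p = 0.976). Shifts within that interval are compatible with these values, and its ends are not limits of detection.

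Among the lipid genes, Lipa encodes lysosomal acid lipase, which hydrolyses cholesteryl esters and triglycerides. Its 3 probe sets gave different pictures. Probe set 1450872_s_at, the brightest, read 10.06 and 10.31 in starved livers, against 10.21 and 10.15 in control livers, a change of 0.0027 ± 0.13 (SE). Probe set 1423141_at read 9.16 and 9.02 in starved livers, against 9.24 and 9.48 in control livers, a change of -0.27 ± 0.14. Only in the second of these did the groups not overlap.

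Lipa probe set 1423140_at read 8.98 and 8.98 in starved livers, against 8.97 and 9.99 in control livers. Control array 2 alone was high, and the other arrays read nearly alike. The change of -0.50 ± 0.32 (SE) was 0.012 without control replicate 2 and -1.01 without control replicate 1 (limma, adjusted p = 0.992 and 0.0938). Control array 2 was also the array with high Lcn2 and the highest macrophage marker sum; their part in the Lipa value was not tested. Limma's adjusted p over all arrays was 1.00, 0.517 and 0.623 for 1450872_s_at, 1423141_at and 1423140_at, in that order.

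Smpd1 encodes acid sphingomyelinase, which splits sphingomyelin into ceramide and phosphocholine. It read 9.33 and 9.30 in starved livers, against 9.51 and 9.79 in control livers. Both starved arrays were below both control arrays, and control array 2 was the highest. The change was -0.34 ± 0.14 (SE), a 1.26-fold lower signal, with a 95% interval of -0.68 to 0.0020 (limma, adjusted p = 0.437). It was -0.20 without control replicate 2 and -0.48 without control replicate 1.

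Psap encodes prosaposin, the precursor of the saposins, small proteins that present sphingolipids to their hydrolases. Probe set 1415687_a_at read 11.12 and 11.16 in starved livers, against 10.98 and 11.14 in control livers. Probe set 1421813_a_at read 9.21 and 9.56 in starved livers, against 9.28 and 9.56 in control livers. Starved and control arrays overlapped in both. The changes were 0.086 ± 0.12 and -0.040 ± 0.17 (SE), with 95% intervals of -0.21 to 0.38 and -0.47 to 0.38 (limma, adjusted p = 0.863 and 0.973).

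**Figure D3:**
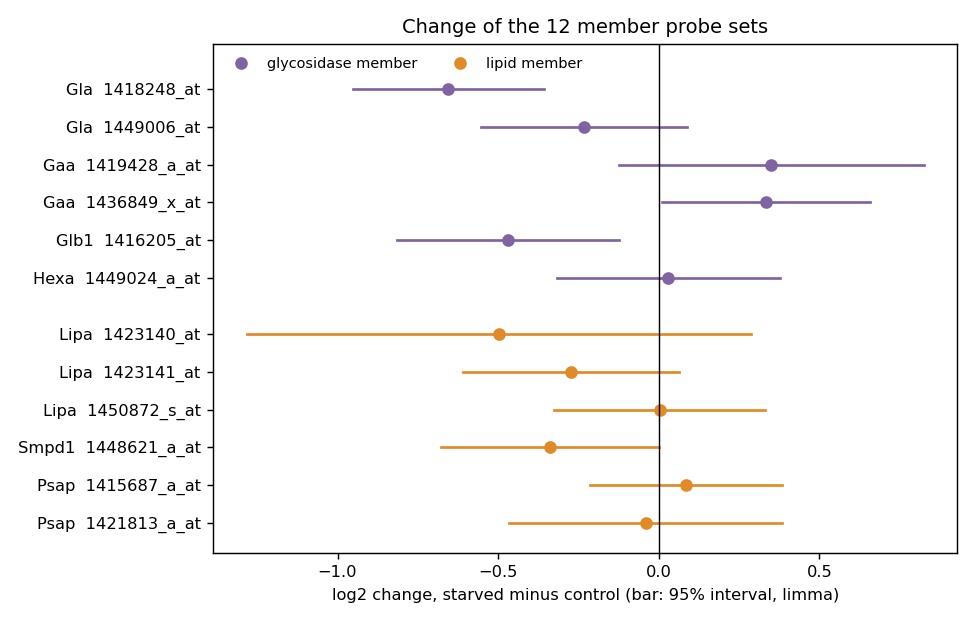
Log2 change, starved minus control, of the 12 member probe sets with limma's 95% interval as a bar, glycosidases above and lipid genes below. Changes run from -0.66 to 0.35 in the glycosidases and from -0.50 to 0.086 in the lipid genes, and the interval leaves 0 outside in Gla 1418248_at, Glb1 and Gaa 1436849_x_at.

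The lipid genes were then set against the glycosidases. Of 6 lipid probe sets 0 had a p under 0.05 and 2 had groups that did not overlap, both lower. Over all probe sets the shares were 11.5% with a p under 0.05 and 41.9% with groups that did not overlap. Of 6 glycosidase probe sets 3 had a p under 0.05 and 5 had groups that did not overlap, 3 lower and 2 higher. With 6 probe sets a class, which share genes, the difference between these counts was not tested. The median change was -0.16 for the lipid probe sets, against -0.10 for the glycosidase probe sets. The glycosidases were thus spread to both sides, with Gla and Glb1 lower and Gaa higher, while no lipid probe set exceeded 0.086.

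For each array the classes were averaged over genes, each gene by its brightest probe set, relative to the control mean. The lipid mean was -0.13 and -0.040 on the starved arrays, against -0.063 and 0.063 on the control arrays. The glycosidase mean was -0.18 and -0.20 on the starved arrays, against 0.0066 and -0.0066 on the control arrays. The glycosidase mean was thus lower on both starved arrays, while the lipid mean overlapped between the groups with this choice of probe sets. Within the glycosidase mean, Gla (-0.66, a dim probe set) and Glb1 (-0.47) were lower, while Gaa (0.33) and Hexa (0.030) were not. The difference, lipid minus glycosidase, was 0.053 and 0.16 on the starved arrays, against -0.069 and 0.069 on the control arrays, and these overlapped. Its starved mean was 0.11 ± 0.077, against 0 ± 0.098 on the control arrays, where the mean is 0 by construction (SD, n = 2 each). With all probe sets of each gene averaged, the lipid mean was -0.224 and -0.157 on the starved arrays, against -0.150 and 0.150 on the control arrays. Starved array 2 and control array 1 were thus nearly equal, and control array 2 stood apart. The glycosidase mean was then -0.083 and -0.19 on the starved arrays, against 0.010 and -0.010 on the control arrays. The sign of the difference turned, to -0.055, with -0.14 and 0.030 on the starved arrays against -0.16 and 0.16 on the control arrays. With either choice the starved and control values of the difference overlapped. Genes of a class are not replicates, and no test was made of these means.

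Partners of the members were measured on the same arrays. Gm2a encodes the activator protein that lifts gangliosides out of the membrane for hexosaminidase A, the enzyme of Hexa. Its probe set 1416188_at read 8.60 and 8.58 in starved livers, against 9.25 and 9.33 in control livers. Probe set 1448241_at read 10.79 and 10.33 in starved livers, against 11.14 and 11.02 in control livers. Both were low on both starved arrays, with changes of -0.70 ± 0.11 and -0.52 ± 0.18 (SE; limma, adjusted p = 0.111 and 0.367). Neu1, the sialidase that forms a complex with Glb1 and Ctsa, had changes of 0.35, 0.12 and -0.17 in its 3 probe sets, and Ctsa, the protective protein of that complex, had 0.24 ± 0.11. None of these passed the test.

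Of the other lysosomal glycosidases 8 of 12 listed genes were measured by 16 probe sets, and 0 passed the test (limma, adjusted p of 0.356 or more). At an unadjusted p under 0.05 there was 1 higher, Neu1 1448481_at, and 0 lower, against 5.42% and 6.04% of all probe sets. Idua, which acts on heparan and dermatan sulfate, had 0.40 ± 0.19 (SE) in 1 probe set and -0.050 in the other, and 0.24 ± 0.12 was the larger value of the mannosidase Man2b1. Ctbs, the chitobiase of glycoprotein breakdown, had 0.16 ± 0.14 in its brighter probe set. The median change of the list was 0.036.

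Of the other lysosomal lipid hydrolases and their activators 9 of 10 listed genes were measured by 15 probe sets, and 0 passed the test (limma, adjusted p of 0.111 or more). At an unadjusted p under 0.05 there were 4 lower and 0 higher, against 6.04% and 5.42% of all probe sets. The 4 lower ones were both Gm2a probe sets, Asah1 and 1 of 2 for Ppt1. Asah1, the acid ceramidase that acts after Smpd1, read 9.70 and 9.94 in starved livers, against 10.23 and 10.24 in control livers, a change of -0.41 ± 0.13 (SE). Ppt1, a palmitoyl-protein thioesterase, read 7.88 and 7.94 in starved livers, against 8.57 and 8.23 in control livers. Galc, the galactosylceramidase, had 0.34, -0.28 and 0.051 in its 3 probe sets. All 3 were dim, with percentile ranks of 28.3 to 36.4, 15.9 to 21.0 and 5.4 to 9.2, in that order. The median change of the list was -0.035, close to 0 because members lay on both sides.

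Hydrolases reach the lysosome through sorting receptors. Of 12 listed sorting genes 9 were measured by 16 probe sets, and 0 passed the test (limma, adjusted p of 0.432 or more). At an unadjusted p under 0.05 there was 1 lower, where 6.04% of all probe sets were. The median change was -0.18. Groups did not overlap in 8 lower and 3 higher probe sets, against 20.6% and 21.3% of all probe sets. Sort1, the receptor sortilin, had changes of -0.28 ± 0.11 and -0.29 ± 0.12 (SE) in its brighter probe sets. M6pr, the cation-dependent mannose 6-phosphate receptor, had -0.29 ± 0.12 and -0.18 ± 0.12. Scarb2, the receptor that carries beta-glucocerebrosidase, had 0.21 ± 0.11 and -0.042 ± 0.18, and Gga1, an adaptor of these receptors, had -0.21 ± 0.12.

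**Figure D4:**
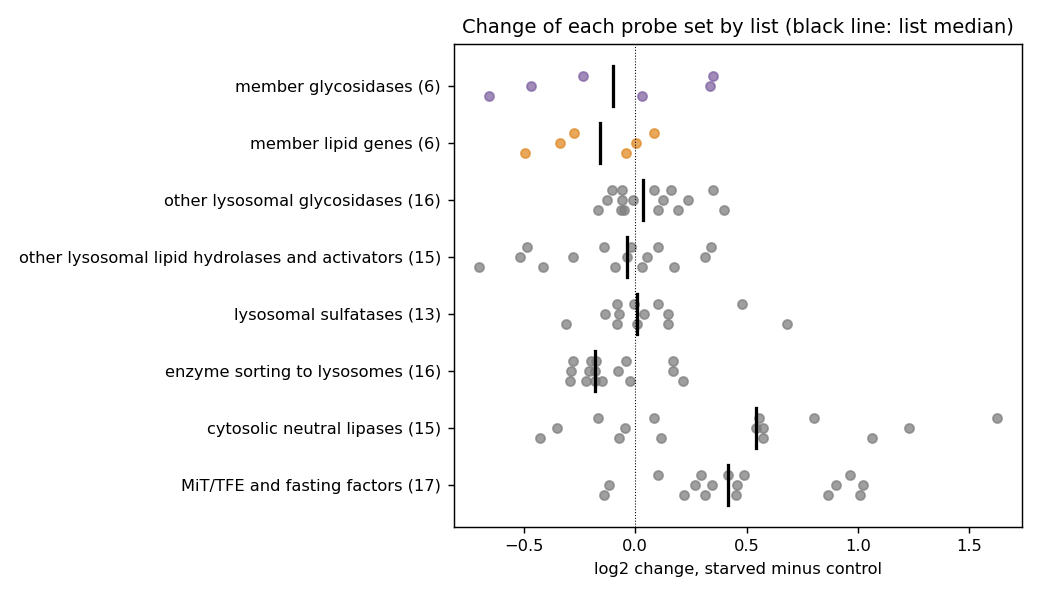
Log2 change, starved minus control, of each probe set in the 2 member classes and in 6 other gene lists; points are probe sets, the number in brackets is how many, and black lines are medians. Medians are -0.10 for the member glycosidases, -0.16 for the member lipid genes, -0.18 for the sorting genes, 0.54 for the cytosolic neutral lipases and 0.42 for the MiT/TFE and fasting factors. Genes with several probe sets weigh more in these medians, such as Mgll and Ces1d among the lipases and Ppargc1a and Foxo1 among the factors. The MiT/TFE genes themselves had -0.12 (Tfeb), 0.27 and 0.10 (Mitf) and 0.31 (Tfec), and Tfe3 was not measured.

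Neutral lipases outside lysosomes, listed as cytosolic neutral lipases, were read with their regulators beside Lipa. All 8 listed genes were measured by 15 probe sets, and 0 passed the test (limma, adjusted p of 0.178 or more). At an unadjusted p under 0.05 there were 5 higher and 0 lower, against 5.42% and 6.04% of all probe sets. The median change over probe sets was 0.54, in which Mgll and Ces1d, with several probe sets each, weigh more than other genes. Pnpla2, the adipose triglyceride lipase, read 9.23 and 8.84 in starved livers, against 8.17 and 8.30 in control livers, in its brighter probe set. Its change there was 0.80 ± 0.16 (SE; limma, adjusted p = 0.178), and all 3 Lipa probe sets lay between -0.50 and 0.0027. The difference between Lipa and these lipases was not tested. The 5 higher ones were 3 for Mgll, 1 for Pnpla2 and 1 for G0s2. Mgll, the monoglyceride lipase, had 0.54, 0.57 and 0.57 in its 3 brighter probe sets. G0s2, an inhibitor of Pnpla2 protein, had 1.62 ± 0.49, with 10.54 and 12.13 in starved livers, against 9.86 and 9.57 in control livers. The carboxylesterase Ces1d had 0.55, 1.06 and 1.23 in its probe sets, with control array 2 the lowest in each. Its brightest read 12.42 and 12.61 in starved livers, against 12.22 and 10.69 in control livers. Pnpla3 had 0.12. Genes with only negative changes were Abhd5, a coactivator of Pnpla2 (-0.35 and -0.43), the carboxylesterase Ces1g (-0.17) and the hormone-sensitive lipase Lipe (-0.074).

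Factors that can act on lysosomal promoters were also read. Of 8 listed MiT/TFE and fasting factors 7 were measured by 17 probe sets, and 0 passed the test (limma, adjusted p of 0.257 or more). The factor not measured was Tfe3, a member of the MiT/TFE family. At an unadjusted p under 0.05 there were 4 higher and 0 lower, against 5.42% and 6.04% of all probe sets. Tfeb read 7.12 and 7.29 in starved livers, against 7.29 and 7.36 in control livers, and the groups overlapped by their closest values. Its change was -0.12 ± 0.12 (SE). Its relative Mitf had 0.27 and 0.10 in its probe sets, and Tfec had 0.31. The Mitf probe set with 0.10 was dim, with a percentile rank of 6.9 to 10.3. Foxo1, a factor restrained by insulin, had 0.22 to 0.46 in its 4 probe sets. Ppargc1a, a coactivator of the fasting liver, had 0.87 to 1.02 in 5 probe sets, with starved array 1 well above the other arrays in each. Its brightest, 1460336_at, read 9.85 and 8.57 in starved livers, against 8.09 and 8.31 in control livers, a change of 1.01 ± 0.40 (SE). Foxo3 had -0.14 to 0.49 in 3 probe sets and the fatty acid receptor Ppara had 0.30 ± 0.18.

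The genes whose 4 values lay closest to Gla 1418248_at were named by Euclidean distance, after each probe set was centred on its control mean, among 17823 probe sets with 1 symbol and no _x_at or _s_at type. They were the tubulin gene Tubb4b at 0.039 log2 units, the beta-actin gene Actb at 0.052 and the prolyl hydroxylase gene Egln3 at 0.065. Tubb4b read 9.44 and 9.63 in starved livers, against 10.13 and 10.24 in control livers. The likeness rests on 4 arrays and on differences shared by 2 groups.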

How the data were processed

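RNA of 4 livers was measured on 1 Affymetrix array each. The authors deposited log2 signals from RMA (affy package), per the submitters' processing notes, with no version or setting named in the sources used here. RMA gives all arrays 1 distribution, which hides any change shared by all transcripts. After 64 Affymetrix controls were left out, 20380 probe sets had 1 symbol, 691 several and 1555 none. Of the probe sets with 1 symbol, 20351 were matched to a RefSeq table (GRCm38.p6) by Entrez identifier and took its symbol, whether it differed or not. Groups were compared in limma 3.58.1 (R 4.3.3; lmFit, eBayes, two-sided, no covariate), with Benjamini-Hochberg adjustment over 22626 probe sets and a threshold of 0.05. The fit had 5.83 degrees of freedom and a median SE of 0.133 (log2), limited by the number of arrays. It was also run on simulated data with planted changes larger than any member change. That run does not show whether changes of the members' size would be found.

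Members, lists and rules were chosen with earlier results of these data known. Named were all members, up to 4 genes with the smallest p per other list, all MiT/TFE and fasting factors and the 3 probe sets nearest to the member with the smallest p; other names were chosen after their values were seen. Summed marker signals, starved against control, were 2754 to 3418 against 2111 to 4332 (sinusoidal endothelium), 1425 to 1615 against 1501 to 2377 (stellate cells), 229 to 271 against 209 to 211 (cholangiocytes), 586 to 738 against 609 to 944 (lymphocytes, neutrophils) and 932 to 951 against 947 to 1209 (red cells). Some measured markers lay below the lower quartile on every array. They were 1 of 8 for sinusoidal endothelium, 1 of 8 for stellate cells and 2 of 5 for cholangiocytes. For lymphocytes and neutrophils it was 1 of 7, and for red cells 1 of 3. Alternatives were other scaling, a low filter, other probe set choices, eBayes settings, a replicate block and each array left out.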

Additional observations from a re-analysis of the deposited data

How the results depend on the processing

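No member probe set passed limma's adjusted threshold in any of 130 alternative values, and 122 kept the direction. Scaling moved array medians by 0.013 or less (log2). The count of 13 probe sets past the test was 8 with 1 probe set per gene, 23 without _x_at and _s_at types, 59 with trend and robust settings and 2 to 57 with 1 array left out. With the replicate number as a block it was 0 in limma (2534 at an unadjusted p under 0.05). No label says that the numbers pair the mice. The within-group differences had r = 0.038 over probe sets, which cannot settle whether they do. The lipid minus glycosidase difference of 0.11 was -0.055 when probe sets of a gene were averaged, -0.064 without _x_at and _s_at types and 0.038 to 0.18 with 1 array left out. It had no value after removal of the 40% of probe sets with the lowest mean, which left 10 of 12 members and neither Gla probe set. Directions turned when 1 array was left out in Hexa (-0.11 to 0.17), Lipa 1423140_at (-1.01 to 0.012), Lipa 1450872_s_at (-0.12 to 0.12) and Psap 1421813_a_at (-0.21 to 0.13). The turned values came without control replicate 2 in all 4, and also without starved replicate 2 in Hexa and Lipa 1450872_s_at and without starved replicate 1 in Psap. Averaging all Lipa probe sets gave -0.26. The causes were not tested. A fit with 1 array left out takes the spread of the intact group for both.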

Other observations

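Sulfatases, which remove sulfate before the glycosidases can act, had 6 of 8 listed genes measured by 13 probe sets, and 0 passed the test (limma, adjusted p of 0.269 or more). At an unadjusted p under 0.05 there were 2 higher and 1 lower, against 5.42% and 6.04% of all probe sets. The median change was 0.0099. Arsg, which acts on heparan sulfate, read 8.80 and 8.77 in starved livers, against 7.86 and 8.35 in control livers, in probe set 1452277_at. Its 2 probe sets had changes of 0.68 ± 0.18 and 0.48 ± 0.16 (SE). Sumf1, which activates all sulfatases, had -0.31 ± 0.12 in the dimmer of its probe sets. In the brighter one it had -0.14 ± 0.15, and the groups overlapped.

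Grn encodes progranulin, a secreted protein that travels to lysosomes and binds prosaposin. Its probe set 1448148_at read 11.89 and 11.76 in starved livers, against 10.87 and 11.13 in control livers. All 3 probe sets were higher on both starved arrays, by 0.82 ± 0.14, 0.66 ± 0.13 and 0.59 ± 0.13 (log2 change, SE), and none passed the test (limma, adjusted p = 0.127 to 0.201). Psap, its binding partner, had 0.086 and -0.040. Pygl, the liver glycogen phosphorylase that degrades glycogen in the cytosol, had -0.41 ± 0.14, with 12.13 and 12.09 in starved livers, against 12.36 and 12.68 in control livers. Gaa, which degrades it in lysosomes, had 0.33 and 0.35 on the same arrays. Of the whole list of partners 12 of 13 genes were measured by 21 probe sets, with a median change of 0.014. At an unadjusted p under 0.05 there were 4 higher and 3 lower, against 5.42% and 6.04% of all probe sets.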
